A study of Mus musculus with 26 samples.

Results

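Brown adipose tissue of fed mice kept at room temperature was compared between mice with and without Klf15 in brown adipocytes. The comparison used 6 of the 26 RNA sequencing libraries of the study, 3 per genotype, chosen by their titles and their fed, room temperature label. Control mice, called FF, carried the genotype KLF15 flox/flox and no Cre. Knockout mice, called BKO, carried Ucp1-Cre/+;K15F/F, that is, floxed Klf15 alleles and 1 Cre transgene under the promoter of Ucp1, a gene that brown adipocytes express. All of these mice were 2 months old. No group carried the transgene without floxed alleles, so effects of the transgene and of the loss of Klf15 cannot be told apart. The other libraries came from fasted mice at room temperature, mice in a cold challenge and mice in cold plus fasting, of the same genotypes. Of 48432 genes in the table, 11822 reached 1 FPKM (fragments per kilobase of a transcript, relative to the mapped fragments of the library) in at least 3 of the 6 libraries and were tested.

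Klf15 is a Krüppel-like zinc finger transcription factor that binds GC-rich and CACCC-type DNA. In liver and muscle it is known as a regulator of amino acid breakdown, and its transcript responds to fasting and to glucocorticoids. Brown fat burns fatty acids and glucose to make heat through uncoupling protein 1, encoded by Ucp1, and it also takes up and oxidizes branched-chain amino acids.

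Libraries are named FF 1 to 3 and BKO 1 to 3. FPKM summed to between 416377 and 440441 in them, and the number of genes at 1 FPKM or more was 11573 to 11840. The depth behind each value is unknown, as FPKM keep no read counts. The labels number the libraries of the study: FF 1 and FF 2 hold the numbers 7 and 8, while FF 3 holds 31 and the BKO libraries hold 29, 30 and 32. On the first principal component, with 33% of the variance, FF 1 and FF 2 lay at 11.63 and 21.67 and FF 3 at -13.7, among the BKO libraries at -15.42, -4.35 and 0.17. Correlations between libraries were 0.977 to 0.99 within FF, 0.98 to 0.985 within BKO and 0.978 to 0.986 between genotypes. On the third component, with 17.6% of the variance, all FF libraries, at 9.41, -3.79 and 16.41, lay above all BKO libraries, at -11.39, -5.29 and -5.36. The library number range is given beside some of the results only. With it in the fit, 5 of the 24 protein-coding genes called besides Klf15 still passed the test, as described further below. Each title carries a number of its own, and the design text counts mice per group, so each library was taken as 1 mouse.

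Klf15 itself was lower in every BKO library. Its level (ENSMUSG00000030087.11, GRCm38 chromosome 6, 90462576 to 90475238) was 29.8, 30.6 and 23.5 FPKM in FF 1, FF 2 and FF 3, against 3.15, 3.67 and 5.13 FPKM in BKO 1, BKO 2 and BKO 3. The lowest FF library was thus far above the highest BKO library, and the BKO mean was 14.3% of the FF mean. On the log2(FPKM + 1) scale, which understates the change of low genes, the difference was -2.55 (SE 0.19, limma adjusted p = 6.77e-09). In whole tissue, fewer cells with the transcript and less transcript per cell cannot be told apart. Among the other 10 Krüppel-like factor genes tested, 0 passed the limma test and 0 had an unadjusted p under 0.05. With each library weighted by its spread (array weights), 2 of them were called higher, as were 465 of all 11822 genes tested. Klf2, for example, stood at 14.3, 14.4 and 52.0 FPKM in FF and at 32.3, 36.2 and 30.4 FPKM in BKO, so that FF 3 lay above and the other FF libraries below all BKO libraries.

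Besides Klf15, enzymes of amino acid breakdown, glutathione transferases and 2 peroxisomal genes were lower in BKO mice, while few genes were higher. In all, 30 genes, or 0.254% of those tested, passed an adjusted p of 0.05, with 24 lower (0.203%) and 6 higher (0.0508%). Of these, 25 code for proteins, 20 lower and 5 higher, and the others are RNA genes or pseudogenes. Gm22767, a small Cajal body RNA gene, was at 2.07, 2.01 and 1.93 FPKM in FF and listed at 0 in all BKO libraries and in all 20 libraries of the other conditions. At an unadjusted p under 0.05 there were 682 genes, or 5.77%. The libraries of the 2 genotypes did not overlap for 441 genes that were lower (3.73%) and 556 that were higher (4.7%) in BKO mice. After quantile normalization 45 genes passed, 31 lower and 14 higher, so that the share of higher calls was 31.1% in place of 20%. FF 3 was the FF library nearest to BKO for 15 of the 24 lower genes (62.5%) and 3 of the 6 higher ones (50%). Among all genes at an unadjusted p under 0.05 the shares were 68.7% of the lower and 72% of the higher ones. Over all genes tested, FF 3 was the highest or the lowest FF library in 78.2%, with both edges counted and whichever side BKO lay on. Without FF 3, 108 genes passed, 58 lower and 50 higher. Without FF 1 or FF 2, 14 passed each time, without BKO 2 15 and without BKO 3 19. Of the 24 protein-coding genes called besides Klf15, 10 passed in each of the 6 fits that left out 1 library. Those fits still took the spread from the other conditions as well. In a fit to the 6 fed libraries alone, 3 of the 24 passed.

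**Figure D1:**
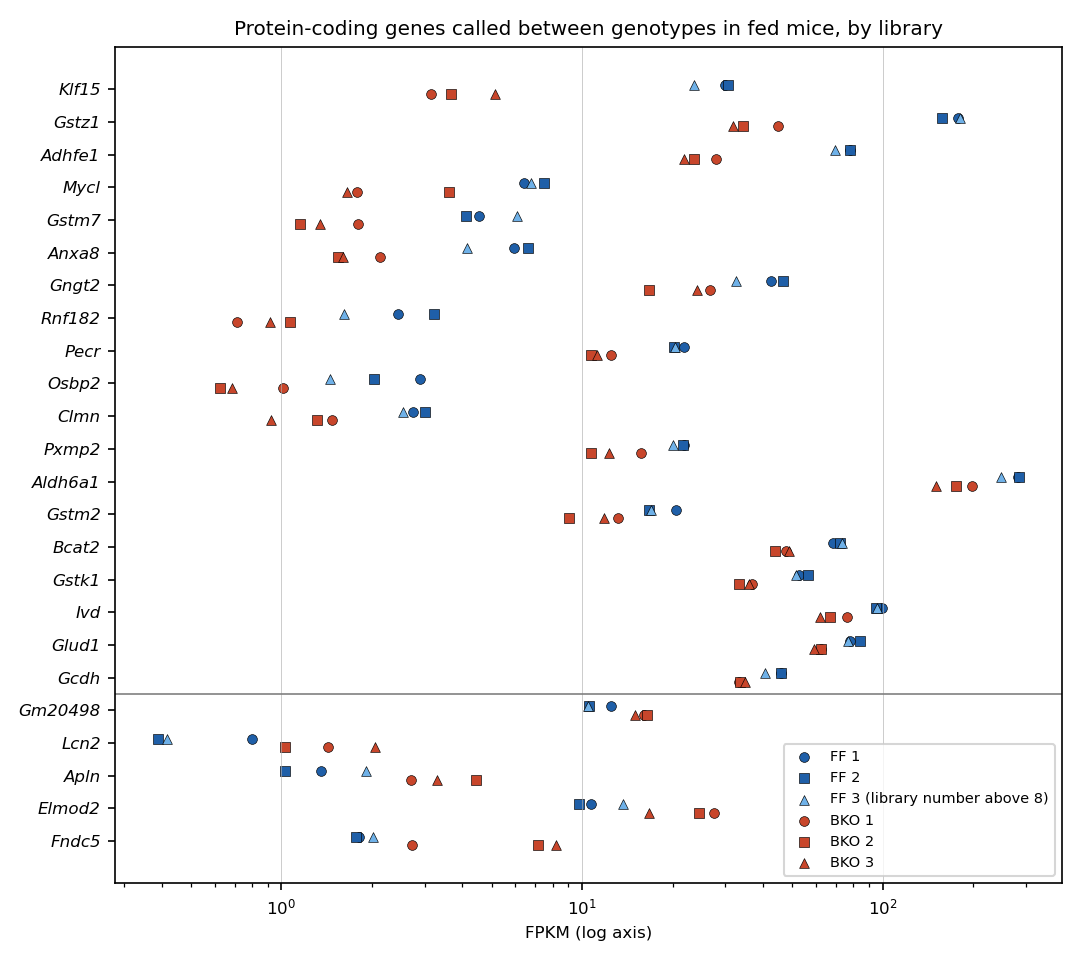
FPKM (log axis) of 24 protein-coding genes called in fed mice, in each of the 6 libraries, with the 19 lower genes above the grey line and the 5 higher ones below it. Each point is 1 library; for Gstz1 the 3 FF points sit between 158 and 182 FPKM and the 3 BKO points between 31.8 and 44.9 FPKM.

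**Figure D2:**
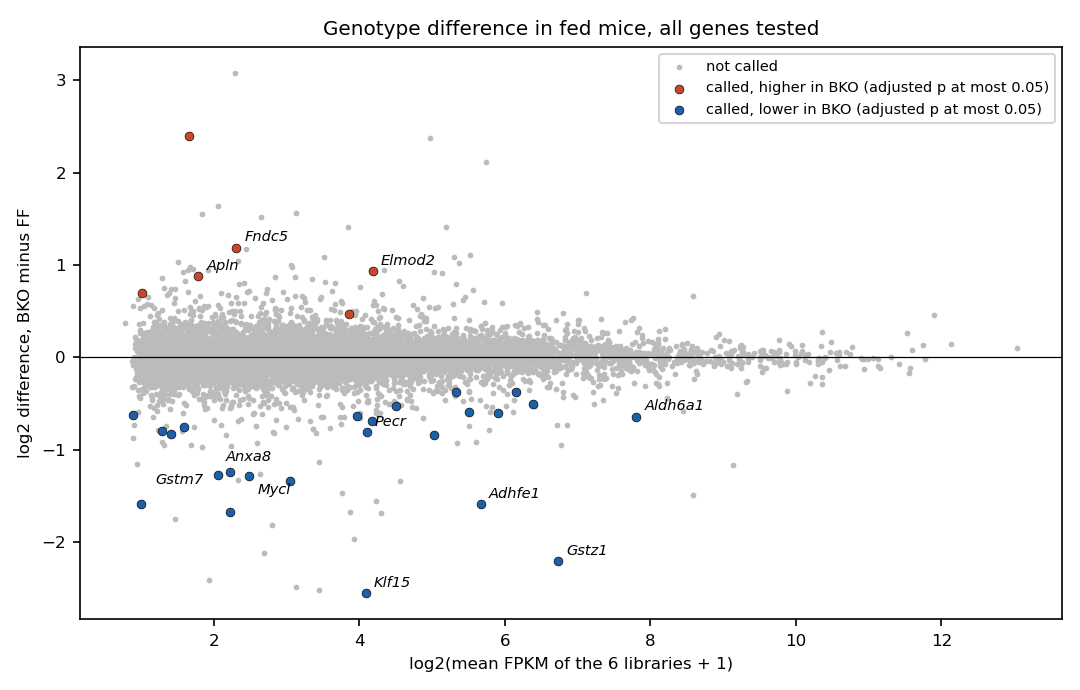
Log2 difference between BKO and FF mice of all 11822 genes tested, against their mean level on a log2 scale, 1 point per gene. Klf15 and Gstz1, at -2.55 and -2.21, lie lowest among the called genes named; unnamed grey points with differences as large did not pass the test.

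Tyrosine breakdown held the largest fall after Klf15 among the protein-coding genes called. Gstz1, maleylacetoacetate isomerase (ENSMUSG00000021033.10, chromosome 12, 87147165 to 87164723), was at 179, 158 and 182 FPKM in FF and at 44.9, 34.3 and 31.8 FPKM in BKO libraries. All FF libraries, FF 3 included, were several times above all BKO libraries, and the BKO mean was 21.4% of the FF mean. The log2 difference was -2.21 (SE 0.12, limma adjusted p = 3.23e-11). Hpd, the dioxygenase that acts earlier in the same pathway, was below the level asked for and was not tested: it read 0.513, 0.660 and 0.926 FPKM in FF and 0.0725, 0.0825 and 0 FPKM in BKO libraries. Fah, which acts next after Gstz1, was at 47.1, 47.5 and 51.8 FPKM in FF and at 42.9, 30.3 and 32.3 FPKM in BKO libraries. Its groups did not overlap, but its difference of -0.48 did not pass (adjusted p = 0.136). Of 7 genes in the tyrosine list 3 were tested, with 1 lower and 0 higher, where 0.203% of all genes tested were called lower. Tat, which opens the pathway in liver, was listed at 0 in all 6 libraries.

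Adhfe1, a mitochondrial hydroxyacid-oxoacid transhydrogenase, fell to 32.6% of the FF mean. It (ENSMUSG00000025911.14, chromosome 1, 9547948 to 9580673) stood at 77.8, 78.1 and 69.4 FPKM in FF and at 27.9, 23.6 and 21.9 FPKM in BKO libraries, with no overlap. The log2 difference was -1.58 (SE 0.11, adjusted p = 4.46e-09). Gcdh, the glutaryl-CoA dehydrogenase of lysine and tryptophan breakdown, fell less, by 0.37 (SE 0.08, adjusted p = 0.0287), from 46.1, 45.7 and 40.8 FPKM to 33.4, 33.5 and 34.7 FPKM. FF 3 was the FF library nearest to BKO for Gcdh, and the call ended without any library other than FF 3 (adjusted p up to 0.248). These were the 2 genes that fell among 14 tested in a list for amino acids other than tyrosine, proline, glutamate and the branched-chain ones. Of all genes tested 0.203% were called lower. Adhfe1 is counted in that list, although its reaction is between hydroxyacids and oxoacids. The median difference of the 14 was -0.08, against 0.00 for all genes tested.

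For branched-chain amino acid breakdown, 3 enzymes were lower in BKO mice. Aldh6a1, methylmalonate-semialdehyde dehydrogenase of valine breakdown, was at 282, 284 and 249 FPKM in FF and at 198, 176 and 150 FPKM in BKO libraries. Bcat2, the mitochondrial transaminase that opens the pathway, was at 68.2, 71.9 and 73.0 FPKM against 47.6, 43.7 and 48.7 FPKM. Ivd, isovaleryl-CoA dehydrogenase of leucine breakdown, was at 99.7, 95.1 and 95.6 FPKM against 76.0, 66.7 and 62.1 FPKM. In none of the 3 genes did the genotypes overlap, and BKO means were 64.3%, 65.7% and 70.5% of FF means. The log2 differences were -0.64 for Aldh6a1 (SE 0.13, adjusted p = 0.0249), -0.60 for Bcat2 (SE 0.13, adjusted p = 0.049) and -0.50 for Ivd (SE 0.08, adjusted p = 0.0035). Ivd passed in every fit that left out 1 library. The call of Aldh6a1 ended without FF 1, FF 2, BKO 2 or BKO 3 (adjusted p up to 0.189), and that of Bcat2 without any one of the 6 (adjusted p up to 0.264). Of the 25 tested genes of the pathway 3 fell and 0 rose, where 0.203% of all genes tested were called lower. A negative difference was found in 20 (80%), against 48.6% of all genes tested, and the median was -0.08. Mut, methylmalonyl-CoA mutase, had no overlap either, at 82.6, 78.0 and 79.0 FPKM against 65.1, 59.7 and 49.95 FPKM, but its difference of -0.46 did not pass (adjusted p = 0.202). The subunits of the branched-chain ketoacid dehydrogenase, Bckdha, Bckdhb and Dbt, had differences of -0.14, -0.17 and -0.16 and did not pass.

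In the proline and glutamate list 1 of 12 tested genes fell and 0 rose, where 0.203% of all genes tested were called lower. Glud1, glutamate dehydrogenase, was at 78.2, 84.0 and 76.7 FPKM in FF and at 62.3, 62.3 and 59.2 FPKM in BKO libraries. The difference was -0.37 (SE 0.08, adjusted p = 0.0249) and ended as a call without any library other than FF 3 (adjusted p up to 0.215). A processed copy of the gene, Glud-ps, was called lower as well, and reads shared between the 2 could be counted for either. Prodh, proline dehydrogenase, was at 10.8, 12.9 and 14.9 FPKM in FF and 7.56, 7.43 and 8.58 FPKM in BKO libraries. Aldh4a1, the next enzyme of proline breakdown, was at 76.2, 63.2 and 69.7 FPKM against 58.5, 54.2 and 50.1 FPKM. Neither gene overlapped between genotypes, and neither passed, with differences of -0.64 (adjusted p = 0.202) and -0.35 (adjusted p = 0.248).

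Glutathione transferases conjugate glutathione to reactive compounds, and Gstz1 belongs to their zeta class. With Gstz1, 4 of 20 tested members fell and 0 rose, at a median of -0.09. Of all genes tested 0.203% were called lower. Gstm7, of the mu class, was at 4.55, 4.12 and 6.07 FPKM in FF and at 1.80, 1.16 and 1.35 FPKM in BKO libraries, a difference of -1.28 (SE 0.14, adjusted p = 5.48e-06). FF 3 was the highest FF library here, not the one nearest to BKO. Gstm2 fell from 20.5, 16.8 and 16.9 FPKM to 13.1, 9.06 and 11.9 FPKM, a difference of -0.64 (SE 0.12, adjusted p = 0.0168), and Gstk1, the kappa class enzyme of mitochondria and peroxisomes, from 52.8, 56.3 and 51.5 FPKM to 36.8, 33.2 and 36.0 FPKM, a difference of -0.59 (SE 0.10, adjusted p = 0.0035). None of these genes overlapped between genotypes. The call of Gstm2 ended without FF 1 or BKO 2 (adjusted p up to 0.174). Genes of the mu class resemble each other closely, so reads could be split between them. In the other direction Gsta3 was at 2.32, 1.72 and 2.10 FPKM in FF and at 12.9, 3.44 and 4.25 FPKM in BKO libraries, without overlap, and did not pass (adjusted p = 0.212).

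Among peroxisomal genes 2 of 39 tested fell and 0 rose, with a list median of 0.04. Of all genes tested 0.203% were called lower. Pecr, the trans-2-enoyl-CoA reductase, was at 21.8, 20.3 and 20.4 FPKM in FF and at 12.5, 10.7 and 11.2 FPKM in BKO libraries. FF 3 lay with the other FF libraries, and the difference of -0.81 (SE 0.09, adjusted p = 6.62e-06) passed in every fit that left out 1 library. Pxmp2, a channel of the peroxisomal membrane, was at 21.8, 21.7 and 20.1 FPKM against 15.7, 10.7 and 12.3 FPKM. Its difference was -0.69 (SE 0.13, adjusted p = 0.0137), and the call ended without FF 1, FF 2, BKO 2 or BKO 3 (adjusted p up to 0.147). The thiolase gene Acaa1b did not pass, with a difference of -0.56 and no overlap between genotypes. The peroxin genes Pex5, Pex3 and Pex14, which build the organelle, had differences of 0.01, -0.00 and 0.13.

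Promoter windows of 4 of these enzymes are shown as examples, as the deleted gene encodes a factor that binds CACCC-type and GC-rich DNA. Gstk1, Gstm2, Gstm7, Glud1, Gcdh and Pecr, which fell as well, hold no CCACCC or its reverse in their windows. Windows run from 250 bases before to 50 after the start in RefSeq on GRCm38.p6, 5′ to 3′ on the strand of the gene. Capitals mark CCACCC or its reverse GGGTGG, and CCCGCCC or its reverse GGGCGGG, searched on both strands with overlaps allowed.
Window of Gstz1 at chr12:87146915-87147214 (plus strand), Aldh6a1 at chr12:84450975-84451274 (minus strand), Ivd at chr2:118861744-118862043 (plus strand) and Bcat2 at chr7:45569903-45570202 (plus strand):
Gstz1: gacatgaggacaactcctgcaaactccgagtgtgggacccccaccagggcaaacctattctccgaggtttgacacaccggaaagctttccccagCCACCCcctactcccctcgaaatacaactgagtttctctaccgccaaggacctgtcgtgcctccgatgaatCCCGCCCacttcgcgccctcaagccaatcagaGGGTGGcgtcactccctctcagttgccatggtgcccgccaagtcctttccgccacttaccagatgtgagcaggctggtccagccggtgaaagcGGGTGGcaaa
Aldh6a1: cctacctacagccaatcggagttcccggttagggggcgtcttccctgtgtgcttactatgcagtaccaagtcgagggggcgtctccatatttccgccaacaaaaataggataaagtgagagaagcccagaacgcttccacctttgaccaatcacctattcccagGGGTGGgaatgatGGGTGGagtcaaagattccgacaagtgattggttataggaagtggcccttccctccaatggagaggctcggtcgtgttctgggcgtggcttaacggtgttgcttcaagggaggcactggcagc
Ivd: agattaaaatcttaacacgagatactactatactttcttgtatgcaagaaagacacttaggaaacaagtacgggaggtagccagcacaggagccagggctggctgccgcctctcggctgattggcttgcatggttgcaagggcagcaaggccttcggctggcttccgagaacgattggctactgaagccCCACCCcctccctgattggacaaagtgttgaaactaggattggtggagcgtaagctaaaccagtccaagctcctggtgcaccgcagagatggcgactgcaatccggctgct
Bcat2: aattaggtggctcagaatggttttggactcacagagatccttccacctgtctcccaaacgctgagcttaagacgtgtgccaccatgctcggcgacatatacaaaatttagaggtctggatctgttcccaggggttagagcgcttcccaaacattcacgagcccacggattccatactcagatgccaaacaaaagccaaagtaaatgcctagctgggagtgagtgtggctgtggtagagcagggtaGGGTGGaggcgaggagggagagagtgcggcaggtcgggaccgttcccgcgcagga
The Gstz1 window holds CCACCC or its reverse 3 times and CCCGCCC 1 time. Aldh6a1 holds the first motif 2 times, and Ivd and Bcat2 1 time each. All 4 windows shown thus hold CCACCC or its reverse, which is not so for all genes that fell. RefSeq lists a further window farther into the gene for Gstz1, with CCACCC 1 time, and for Aldh6a1 and Bcat2, with neither motif. Gstm7 and Gstm2 hold neither motif in any window. A window was found for 16 of the 20 protein-coding genes called lower, Klf15 included, and 9 of the 16 hold CCACCC, 9 hold CCCGCCC and 2 hold neither. Of their 22 windows 11 (50%) held CCACCC and 11 (50%) held CCCGCCC. Over all 32851 RefSeq windows of this length, of genes tested here or not, the shares were 31.5% and 25.6%. A gene with more than 1 window counts more than 1 time in these shares. The windows of Glud1, Gcdh, Pecr and Gstk1 hold CCCGCCC and no CCACCC. Of the 5 windows of genes called higher, 0 held CCACCC and 3 held CCCGCCC. A match describes the letters of the window only.

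Several genes outside metabolism also fell. Mycl, a transcription factor of the Myc family, fell from 6.41, 7.48 and 6.76 FPKM to 1.78, 3.61 and 1.66 FPKM (difference -1.28, SE 0.21, adjusted p = 0.00345). Anxa8, an annexin that binds membrane phospholipid, fell from 5.93, 6.60 and 4.14 FPKM to 2.13, 1.54 and 1.597 FPKM (difference -1.24, SE 0.12, adjusted p = 9.89e-07). Both genes passed in every fit that left out 1 library. With 0.1 in place of 1 added to the FPKM, limma still called Anxa8 (adjusted p = 0.00142) but not Mycl (adjusted p = 0.11). The G protein subunit gene Gngt2 fell by 0.83, the ubiquitin ligase gene Rnf182 by 0.83, the oxysterol-binding protein gene Osbp2 by 0.80 and Clmn, which encodes an actin-binding membrane protein, by 0.75. Rnf182, Osbp2 and Clmn were below 3.3 FPKM in all 6 libraries. Clmn passed in every fit that left out 1 library, while the calls of Gngt2, Rnf182 and Osbp2 ended without FF 1, without FF 2 and without 1 or 2 of the BKO libraries, at adjusted p up to 0.200, 0.183 and 0.507.

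Higher in BKO mice were 3 genes of secreted proteins or their precursors and Elmod2, besides the predicted gene Gm20498. Fndc5, the precursor of irisin, was at 1.81, 1.77 and 2.01 FPKM in FF and at 2.72, 7.16 and 8.18 FPKM in BKO libraries. BKO 1 lay close to the FF libraries and the other BKO libraries well above, and the difference of 1.19 (SE 0.19, adjusted p = 0.00345) passed in every fit that left out 1 library. In a limma fit to the 6 fed libraries alone, Fndc5 did not pass (adjusted p = 0.703). Apln, the peptide ligand apelin, was at 1.35, 1.03 and 1.91 FPKM against 2.69, 4.44 and 3.30 FPKM (difference 0.88, SE 0.18, adjusted p = 0.0249). Lcn2, a lipocalin that binds bacterial siderophores, was at 0.795, 0.389 and 0.417 FPKM against 1.43, 1.03 and 2.05 FPKM (difference 0.70, SE 0.14, adjusted p = 0.0204). These levels are low, and the calls of Apln and Lcn2 ended without some libraries: Apln without FF 1, FF 2, BKO 2 or BKO 3 (adjusted p up to 0.240) and Lcn2 without FF 2 or BKO 3 (adjusted p up to 0.185). Elmod2, a GTPase-activating protein gene next to Ucp1 on chromosome 8 (83312632 to 83332486), was at 10.7, 9.78 and 13.7 FPKM in FF and at 27.4, 24.6 and 16.7 FPKM in BKO libraries. FF 3 and BKO 3 were the nearest pair, and the difference was 0.93 (SE 0.18, adjusted p = 0.022). It ended as a call without FF 1, FF 2, BKO 1 or BKO 2 (adjusted p up to 0.183). Tbc1d9, on the other side of Ucp1, was at 1.00, 0.991 and 1.48 FPKM against 2.41, 2.62 and 2.03 FPKM and did not pass (difference 0.64, adjusted p = 0.0526). Only BKO mice carry the Ucp1-Cre transgene, and its part in the levels of genes near Ucp1 was not tested.

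Genes of heat production and fuel use did not pass the test when all libraries were weighted equally. Of 26 thermogenic genes, 50 subunits of oxidative phosphorylation, 27 genes of mitochondrial fatty acid oxidation, 26 of the tricarboxylic acid cycle and pyruvate, 29 of glucose use and 22 of lipogenesis, 0 were called in either direction by limma. Of all genes tested 0.254% were called. At an unadjusted p under 0.05, the glucose list held 1 higher and 3 lower genes, the thermogenic list 2 and 1, and the other lists at most 1. The medians of these lists ran from -0.03 to 0.04. Ucp1 was at 2647, 2687 and 4486 FPKM in FF and at 3908, 4768 and 4474 FPKM in BKO libraries. FF 3 lay among the BKO libraries, and the difference of 0.46 (95% interval 0.03 to 0.89, adjusted p = 0.814) became -0.04 with the library number range in the fit. For Ucp1 that value is the same as with FF 3 as the only fed FF library. Dio2, the deiodinase that activates thyroid hormone, was at 17.8, 13.2 and 27.7 FPKM in FF and at 52.4, 47.9 and 55.1 FPKM in BKO libraries. No libraries overlapped, yet the difference of 1.42 did not pass (95% interval 0.59 to 2.24, adjusted p = 0.27). Adrb3, the main adrenergic receptor of mouse fat, overlapped between genotypes at 167, 115 and 230 FPKM against 183, 116 and 169 FPKM. For Cpt1b, the carnitine palmitoyltransferase of fatty acid entry, the difference was 0.10 (95% interval -0.11 to 0.32). For Slc25a20, the carnitine-acylcarnitine carrier, it was 0.11 (-0.06 to 0.27). Lpl, Slc2a4 and Pparg had differences of 0.19, 0.08 and -0.18, none past the threshold. For Ppargc1a, Acly and Ppara they were 0.16, -0.27 and -0.02. With array weights, which weight each library by its spread, 844 of all 11822 genes tested passed, 465 higher and 379 lower. Among them, limma called Ucp1 (0.72, adjusted p = 0.00859) and Dio2 (1.45, adjusted p = 0.00965) higher and Pparg (-0.30, adjusted p = 0.0286) lower. The thermogenic list then held 3 higher and 3 lower calls, fatty acid oxidation and lipogenesis 0, and the other 3 lists 1 each.

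**Figure D3:**
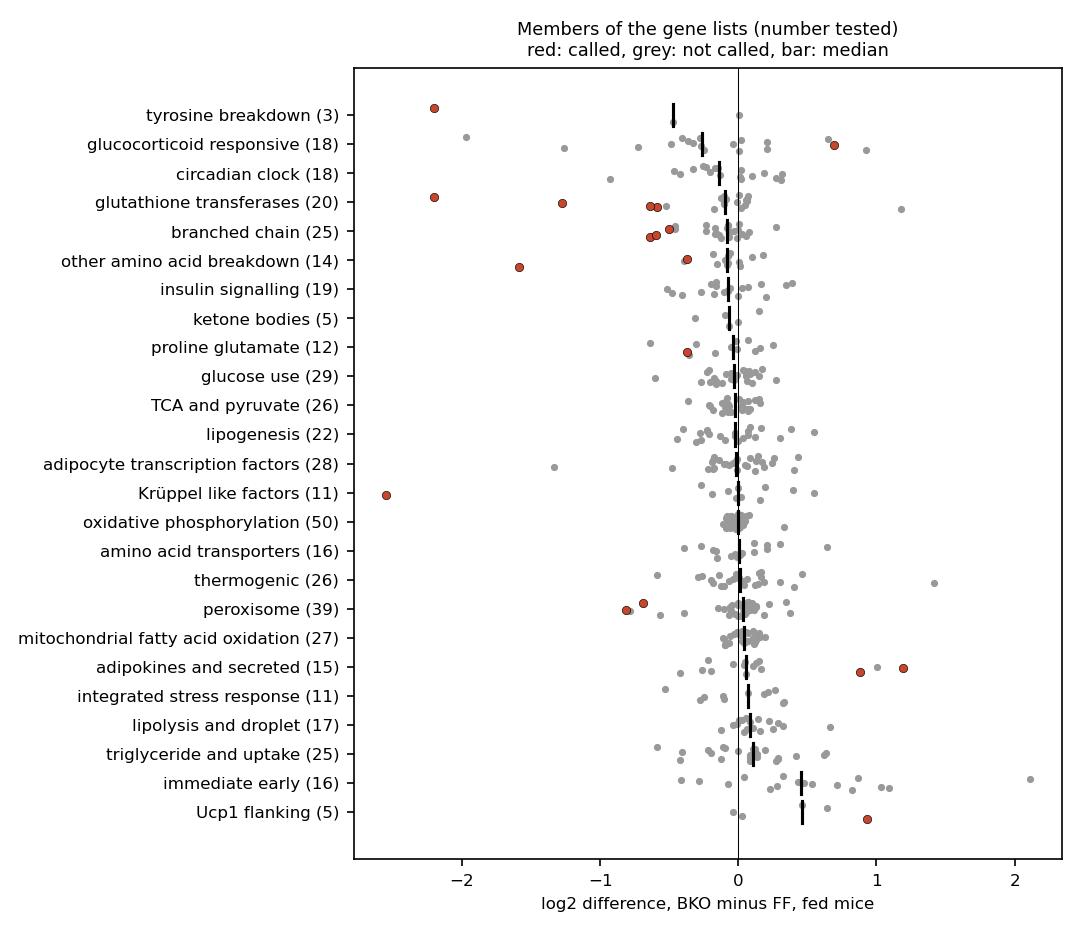
Log2 difference between BKO and FF mice of the members of 25 gene lists (horizontal axis), 1 point per gene, with the list median as a bar and the number of tested members in brackets. Called genes, in red, sit in the lists of amino acid breakdown, glutathione transferases, peroxisome, Krüppel-like factors, secreted proteins, glucocorticoid-responsive and Ucp1-flanking genes, while the respiratory chain subunits lie close around 0.

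Among 18 tested glucocorticoid-responsive genes 1 rose, Lcn2, and 0 fell, and the list median was -0.26. Of all genes tested 0.0508% were called higher. FF 3 lay inside the BKO range with both other FF libraries outside it in 6 of the 18 genes (33.3%), in 3 of 16 immediate-early genes (18.8%) and in 14.9% of all genes tested. Over the lists this share ran from 0% in tyrosine breakdown to 60% in 5 erythroid markers, with 36.4% in 11 Krüppel-like factor genes. For Lcn2 all FF libraries lay outside the BKO range. Zbtb16, a zinc finger factor, was at 28.8 and 40.2 FPKM in FF 1 and FF 2, at 3.96 FPKM in FF 3, and at 3.97, 1.45 and 7.34 FPKM in BKO libraries. Fkbp5, a cochaperone of the glucocorticoid receptor, was at 8.10, 15.2 and 1.67 FPKM against 1.89, 1.47 and 3.00 FPKM. In both genes FF 3 lay within the range of the BKO libraries, and neither passed (adjusted p = 0.506 and 0.681). The 16 immediate-early genes, which respond within minutes to stimulation, had a median of 0.45. Under equal weights limma called 0 of them, with 2 higher at an unadjusted p under 0.05. With array weights 3 were called higher, as were 465 of all 11822 genes tested. Nr4a1 was at 6.36, 14.1 and 46.7 FPKM in FF and at 135, 42.6 and 71.1 FPKM in BKO libraries, with FF 3 again inside the BKO range. With the library number range as covariate the differences of Zbtb16, Fkbp5 and Nr4a1 went from -1.97, -1.26 and 2.11 to -1.04, -0.58 and 1.16, while Lcn2 went from 0.70 to 0.72.

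Markers of other cell types were followed because the tissue holds vessels, blood, immune cells and neighbouring muscle. No marker of the 11 cell types was called by limma when all libraries were weighted equally. With array weights 844 of all 11822 genes tested passed, 465 higher and 379 lower. Among them, 2 erythroid, 2 endothelial and 2 brown adipocyte markers were called higher. So were 1 lymphocyte and 1 Schwann cell or nerve marker. Macrophage and general adipocyte markers had 1 call each way, and the other cell types 0. Of 10 erythroid markers listed, 8 were in the table and 5 were tested, with a median difference of 0.78. Of the 5, 4 had an unadjusted p under 0.05, against 5.77% of all genes tested. The summed level of the 8 was 120 to 188 FPKM in FF and 174 to 472 FPKM in BKO libraries, with BKO 1 the highest. The 14 skeletal muscle markers summed to 37.2 to 99.3 FPKM in FF and 55.3 to 162 FPKM in BKO libraries, with a median difference of 0.68 over 11 tested. The 10 white adipocyte markers summed to 18.1 to 23.03 FPKM against 24.6 to 36.4 FPKM, although Hoxc9, Hoxc10 and Tcf21 were at 0 in all 6. The 15 macrophage markers gave 108 to 127 FPKM against 113 to 158 FPKM. For the 10 endothelial markers the sums were 289 to 328 FPKM against 301 to 336 FPKM. Brown adipocyte markers, 14 genes that include Ucp1 and Cidea, summed to 10968 to 13013 FPKM in FF and 12417 to 14728 FPKM in BKO libraries, with Ucp1 at 2647 FPKM or more in every library. The 7 Schwann cell and nerve markers summed to 83.0 to 94.4 FPKM against 97.1 to 110 FPKM. The white adipocyte and the Schwann cell and nerve sums did not overlap between genotypes, while those of the other cell types named here did. The part of other cell types in the called genes was not tested.

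With the library number range as a covariate in the fit to all 26 libraries, 7 genes passed, all lower. They were Klf15, Gstz1, Adhfe1, Gstm7, Pecr, Anxa8 and an RNA gene. Only the fed FF and the cold FF groups hold numbers of both ranges. The covariate thus rests on FF 3 and the cold FF library numbered 17, set against fed FF numbers 7 and 8 and cold FF numbers 4 to 6. Every other group lies within 1 range. The differences moved little in most called genes. That of Gstz1 was -2.19 (SE 0.15, adjusted p = 6.59e-09), of Adhfe1 -1.54, of Pecr -0.78, of Anxa8 -1.08 and of Gstm7 -1.41. Aldh6a1, Bcat2 and Ivd stood at -0.60, -0.60 and -0.50 and no longer passed (adjusted p = 0.435, 0.445 and 0.0811). Fndc5, Elmod2 and Apln stood at 1.20, 0.85 and 0.77 (adjusted p = 0.0673, 0.435 and 0.499). Glud1, Gcdh and Mycl stood at -0.35, -0.28 and -1.19 (limma adjusted p = 0.435, 0.75 and 0.106). For Gstk1, Gstm2 and Pxmp2 the values were -0.54, -0.61 and -0.62 (limma adjusted p = 0.135, 0.326 and 0.385). Among the 24 protein-coding genes reported here Osbp2 moved the most, from -0.80 to -0.46. With libraries numbered above 8 alone, which leaves FF 3 as the only fed FF library and assumes that it varies like the other groups, 8 genes passed, all lower, 7 of them among the 30. A fit to the 6 fed libraries alone called 7 genes, among them Klf15, Gstz1, Adhfe1 and Pecr. No other protein-coding gene called in the main fit kept its call there. Limma adjusted p was 0.0583 for Gstm7, 0.0871 for Anxa8, 0.169 for Mycl, 0.302 for Ivd and 0.703 for Fndc5.

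**Figure D4:**
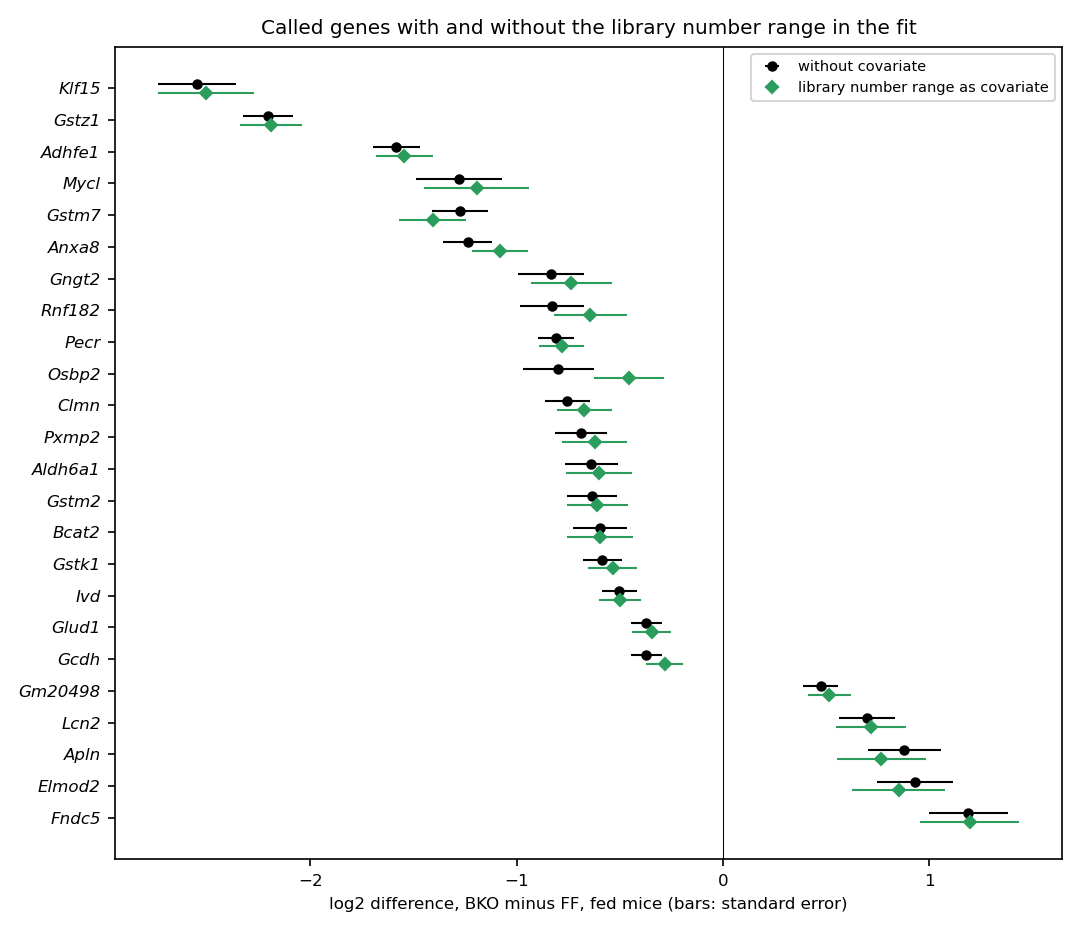
Log2 difference (BKO minus FF, fed) of 24 called protein-coding genes without a covariate (black) and with the library number range as covariate (green), with standard errors as bars. The pairs lie close together for most genes; for Osbp2 the values are -0.80 and -0.46.

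The called genes were then followed in the other conditions. The differences there came from 20 libraries outside the fed comparison. The spread in every test, fed or not, came from all 26 libraries. A gene with a small spread was thus favoured in both, and the calls are not independent. Of the 24 genes lower in fed BKO mice, Klf15 included, 21 had the same sign in fasted mice, 21 in cold and 20 in cold plus fasting. They were called lower there for 19, 15 and 11 genes, where 4.19%, 0.381% and 0.212% of all genes tested were called lower in fasted mice, in cold and in cold plus fasting. In fasted mice all FF libraries hold numbers 1 to 3 and all BKO libraries numbers above 8, so library number range and genotype cannot be told apart there. In cold, 3 of the 4 FF libraries hold numbers 4 to 6 and all BKO libraries numbers from 15 to 19, and the 15 genes called lower became 11 with the library number range as covariate and 5 above 8 alone, where 1 FF library is left. In cold plus fasting, where all numbers are above 8, the count was 11 each time. The medians of the 24 were -0.80 fed, -0.91 fasted, -0.64 in cold and -0.57 in cold plus fasting. Gstz1 was at -2.59, -2.52 and -2.46 in the 3 other conditions, Adhfe1 at -1.95, -1.72 and -1.73, and Pecr at -1.34, -1.05 and -0.95, each called. Aldh6a1 was at -0.93, -0.90 and -0.89 and Ivd at -0.86, -0.61 and -0.59, also called each time. Anxa8, by contrast, was at -1.22 in fasted mice and called, and at -0.33 and -0.26 in cold and in cold plus fasting, where it did not pass. On the log2(FPKM + 1) scale its genotype difference changed against fed mice by 0.91 in cold (SE 0.16, adjusted p = 0.0432). In cold plus fasting it changed by 0.98 (SE 0.17, adjusted p = 0.0399). Its mean was 0.479 FPKM in FF and 0.179 FPKM in BKO mice in cold, and 0.427 and 0.192 FPKM in cold plus fasting. At such levels the scale understates a change, so a loss of the relative difference is not shown. Mycl was at -0.78, called, and at -0.26 and -0.01, with group means in cold and in cold plus fasting below 1 FPKM. Over all genes, the genotype difference changed against fed mice in 83 genes in fasted mice (0.702%), in 2 in cold (0.0169%) and in 2 in cold plus fasting (0.0169%). Of the 6 genes higher in fed BKO mice, 1 was called higher in each other condition, where 4.82%, 0.0254% and 0.0169% of all genes were: Fndc5 in fasted mice (1.03, adjusted p = 0.0016) and Elmod2 in cold (0.74, adjusted p = 0.0319) and in cold plus fasting (0.92, adjusted p = 0.0251). Apln was at 0.10, -0.03 and 0.02. Of all 30 genes, 11 were called in the same direction in all 3 other conditions and 9 in none.

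**Figure D5:**
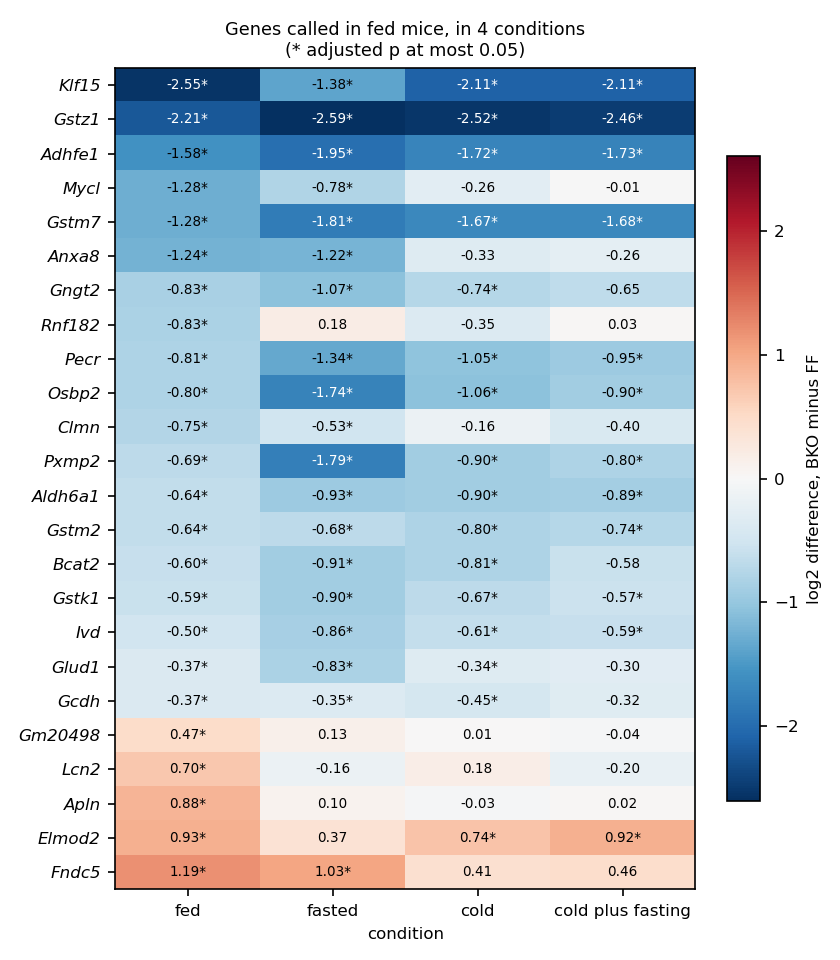
Log2 difference between BKO and FF mice (colour and printed value) of 24 protein-coding genes called in fed mice, 1 row per gene and 1 column per condition, with an asterisk where the adjusted p is at most 0.05. Gstz1 is between -2.59 and -2.21 in all 4 columns, while Anxa8 goes from -1.24 fed to -0.33 in cold, where its group means are below 1 FPKM.

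Just outside the threshold stood Tfrc, the transferrin receptor that takes up iron, at 5.80, 6.38 and 7.98 FPKM in FF and 19.5, 26.96 and 13.7 FPKM in BKO libraries. Its difference was 1.41 at an adjusted p of 0.0526, against 0.049 for Bcat2 and Osbp2 just inside. Hsd11b1, which regenerates active glucocorticoid, was at 130, 145 and 153 FPKM against 103, 78.5 and 77.9 FPKM (difference -0.73, adjusted p = 0.107). Txnip, an inhibitor of thioredoxin that responds to glucose, was at 856, 828 and 601 FPKM against 435, 195 and 438 FPKM (difference -1.17, adjusted p = 0.259). None of these 3 genes overlapped between genotypes. Irf4, a transcription factor of the fasting and cold response of fat, overlapped, at 30.1, 16.6 and 48.6 FPKM in FF and 24.9, 8.88 and 5.69 FPKM in BKO libraries.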

How the data were processed

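RNA sequencing of mouse brown adipose tissue was analysed from the table of FPKM values that the authors deposited for 26 libraries, made with STAR, Cufflinks and Cuffdiff on mm10 per the submitters' processing notes, with no versions. The annotation is not given in the sources used here. Low FPKM values did not fall on whole reads, so depth is unknown. Zeros of genes whose other values were all at least 100 FPKM were taken as failed estimates and removed (33 genes). Genes with at least 1 FPKM in 3 of the 6 fed libraries were kept (11822). Values were analysed as log2(FPKM + 1). Means of the 8 groups of 26 libraries were fitted by limma 3.58.1 under R 4.3.3 (empirical Bayes with trend), two-sided, with Benjamini-Hochberg adjustment over all genes tested and a threshold of 0.05. The groups share 1 estimate of the spread. The fit was tested on simulated data. Gene positions are from GENCODE M21 on GRCm38, which held 48051 of the IDs.

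Members and gene lists were chosen with earlier results of these data known. Genes named were 25 fixed by name, called genes of at least 2 FPKM without overlap, up to 4 members of each list with the smallest p, the 6 largest uncalled differences each way, and up to 3 genes each way per change against fed mice. Bckdha, Bckdhb, Dbt, Pex3, Pex5, Pex14 and Tat were named after their values were seen. Withheld items among these genes are left out of text and plots by name. Alternatives were another pseudocount, other filters, quantile normalization, median scaling, array weights, the library number range as covariate, libraries above 8 alone, the 6 fed libraries alone, other handling of zeros and leaving out each fed library. Promoter windows are from RefSeq.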

Additional observations from a re-analysis of the deposited data

Results flagged for a closer look

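The genotype difference (BKO minus FF, log2 scale) changed between fed and other mice in the genes below, by limma interaction contrasts with adjustment over all genes tested. The called genes were chosen for their difference in fed mice, so a smaller difference elsewhere was favoured by that choice.

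Between fasted and fed mice 83 genes passed (0.702% of those tested), where fasted FF libraries all hold numbers 1 to 3 and BKO libraries numbers above 8, so that library number range and genotype cannot be told apart. The difference of Klf15 was smaller in fasted mice, by 1.17 (adjusted p = 0.0413), and that of Rnf182 moved by 1.01 (adjusted p = 0.0308). Pxmp2, Prodh, Pecr and Glud1, enzymes or channels of peroxisomes and amino acid breakdown, moved further down, by changes of -1.10, -1.11, -0.53 and -0.45 (adjusted p = 0.00436, 0.0335, 0.0472 and 0.0461). Dio2 changed by -2.51 (adjusted p = 0.0402): it stood at 89.2 ± 41.4 FPKM in FF and 39.3 ± 8.90 FPKM in BKO fasted mice (SD, n = 3 each), the opposite order to fed mice. The change for the glucose transporter gene Slc2a4 was -0.77 (adjusted p = 0.0241) and for Lcn2 -0.85 (adjusted p = 0.0402). The smallest adjusted p values belonged to genes not called in fed mice: Selenbp1 changed by -1.73 (adjusted p = 0.000164), Fbf1 by -1.18 (0.000665), Ndrg2 by -0.62 (0.00172), Decr2 by 0.81 (0.000714) and Ddo by 0.77 (0.00144).

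Between cold and fed mice 2 genes passed (0.0169%), of which 1 codes for a protein. Anxa8 changed by 0.91 (adjusted p = 0.0432) in cold and by 0.98 (adjusted p = 0.0399) in cold plus fasting, where 2 genes passed as well. Its level was 0.479 ± 0.0596 FPKM in FF and 0.179 ± 0.0717 FPKM in BKO mice in cold (SD, n = 4 each), so both genotypes were far below the fed level. All BKO libraries in cold still lay below all FF libraries in cold. At that level the log2(FPKM + 1) scale understates a change, so a loss of the relative difference is not shown.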

How the results depend on the processing

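Depth is unknown, groups hold 3 libraries, and 1 library stands with the other genotype, which limits what the counts below show. Klf15 stayed lower and past the threshold under every alternative run. With a pseudocount of 0.1, 25 genes passed. Among the protein-coding genes, limma then no longer called Mycl, Lcn2, Osbp2 and Bcat2 (adjusted p = 0.11, 0.193, 0.216 and 0.052). The count of 30 genes became 16 with a mean of at least 5 FPKM, where fewer genes were tested, 844 with array weights, 7 in the 6 fed libraries alone, 7 with the library number range as covariate, 8 with libraries above 8 alone, and 14 to 108 when 1 fed library was left out; the cause was not tested. Genes called in the other conditions, 21, became 11 with libraries above 8 alone, where fasted mice have no FF library. Changes of the genotype difference against fed mice, 87 over 3 contrasts, became 591 with array weights, 2 above 8 alone, and 34 to 93 when 1 fed library was left out; the 6 fed libraries alone give neither value. Signs turned in uncalled genes only: Ppargc1a to -0.0648 with array weights; Ucp1 to -0.0382, Slc2a4 to -0.0407 and Ppara to 0.0139 with the covariate; Ucp1 to -0.0382, Pparg to 0.10 and Slc2a4 to -0.17 above 8 alone. For Ucp1 the covariate and the libraries above 8 gave the same value, that of the BKO libraries against FF 3 alone. Leaving out 1 library gave -0.17 to 0.0790 for Ppara, -0.21 to 0.72 for Ppargc1a, -0.36 to 0.14 for Adrb3 and -0.61 to 0.000426 for Acly. No paired analysis was possible because the labels give the libraries no replicate numbers shared between genotypes.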
